A study of Mus musculus with 9 samples.

Results

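Aggregates built from a 50% mixture of basal and luminal mouse mammary epithelial cells were compared with aggregates built from luminal cells alone, across all genes counted. The comparison uses 6 of the 9 libraries of the study, 3 mixed and 3 pure luminal, chosen by their titles. The other 3 libraries, from basal-only aggregates, entered the fit for its estimate of spread, and their levels are quoted as a further reference. All groups were wild type (WT), from cells sorted into luminal and basal fractions by flow cytometry. All aggregates sat in 80% Matrigel, a basement-membrane extract, beside beads of heparin sulfate, 100 to 150 µm across, that had been soaked in 10 µL of FGF10 at 100 µg/mL, and were collected after migrating. The titles give 55 h and the treatment label 56 h for every library. The sources used here give neither strain and age nor the purity of the sorted cells, and no group without FGF10 was analysed here. The study asked what each lineage contributes to collective migration.

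The mammary duct has an inner luminal layer, which holds hormone-sensing cells and secretory progenitors, and an outer basal layer of contractile myoepithelial cells that rest on the basement membrane. FGF10 is a secreted ligand of the mesenchyme that acts through the receptor FGFR2, which signals through the ERK kinases and draws epithelial buds toward its source. In the duct, basal cells can supply matrix, Notch ligands and Wnt ligands, and luminal cells can respond through receptors such as those of the Notch family. Bulk RNA of mixed aggregates does not show which lineage made a transcript.

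The libraries held 15585324 to 19164405 counts, and 18051 of 54456 gene names passed the filter on low counts. The 3 counts that a single count of 0 still allows were 0.152 to 0.187 CPM (counts scaled to a library of equal size, in the usual per-million unit) in a library. The column names carry library codes in 3 series. Series A holds all 3 mixed libraries and basal 2, series B holds basal 1, basal 3 and luminal 1, and series C holds luminal 2 and 3. No series holds both a mixed and a luminal library, so code series and kind of aggregate cannot be told apart in the direct comparison. A second fit (the code-series fit), which adds these series to the model, reaches the contrast only through the basal libraries, with 4 residual degrees of freedom. Luminal 2 and 3 are alone in series C and so do not inform its contrast. The contrast sets the mixed libraries against basal 2, and basal 1 and 3 against luminal 1. A call that holds or ends in this fit therefore depends on luminal 1 and on basal 2, 1 library each. Whether libraries of the same kind stem from different animals or cultures is not in the labels, so a p-value here measures only the spread between these libraries, which may be technical. In bulk RNA, fewer cells of a type and less RNA per cell cannot be told apart.

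Some transcripts stood with the code series rather than with the kind of aggregate. The 7 genes with the highest log2 differences among those without overlap and with a mean of at least 10 CPM encode secreted proteins known from salivary and lacrimal glands or from the stomach (Bpifa2, Pip, Scgb1b27, Prol1, Dcpp1, Dcpp2 and Chia1). Bpifa2, parotid secretory protein, had 364, 371 and 667 CPM in mixed 1, 2 and 3 and 0.108, 0 and 0.0622 CPM in luminal 1, 2 and 3, and 339.6 CPM in basal 2 against 0 in basal 1 and 3. Pip, prolactin-induced protein, had 285, 278 and 474 CPM in the mixed and 0.0540, 0 and 0.124 CPM in the luminal libraries, with 227 CPM in basal 2. All 4 series A libraries were high and all 5 others were near 0. Bpifa2 had 24631 counts in the mixed libraries together against 3 in the luminal ones, a ratio of CPM of 8109 with a 95% exact binomial interval of 2775 to 39326 that covers counting error only. Dcpp1 had 0 counts in every luminal library, and its mean was at least 158-fold higher in mixed aggregates against the luminal floor of 3 counts per library. The fitted log2 differences of the 7 genes, which depend on the fit at such low luminal counts, were 7.87 to 12.80 with adjusted p of 0.028 to 0.050 by edgeR's quasi-likelihood test. In the code-series fit they were -3.56 to 4.91, and none passed (lowest adjusted p = 0.41). Without any 1 of the 6 mixed and luminal libraries none passed either (adjusted p of 0.053 to 0.18), and Dcpp1 and Dcpp2 are close copies whose reads can be split or lost. Neat1, a nuclear long noncoding RNA, ran the other way, with 233, 312 and 257 CPM in the mixed and 4229.6, 3688 and 5452 CPM in the luminal libraries and 2705, 116 and 1968 CPM in basal 1, 2 and 3. Its log2 difference of -4.06 ± 0.79 (SE, adjusted p = 0.0039) became 0.34 in the code-series fit. Among all tested genes, basal 2 was at least 2-fold above both other basal libraries for 4.94%, and among the genes higher in mixed aggregates for 12.7% (350 genes). It was at least 2-fold below both for 9.47% of all genes and for 15.1% (387 genes) of the lower ones.

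**Figure D1:**
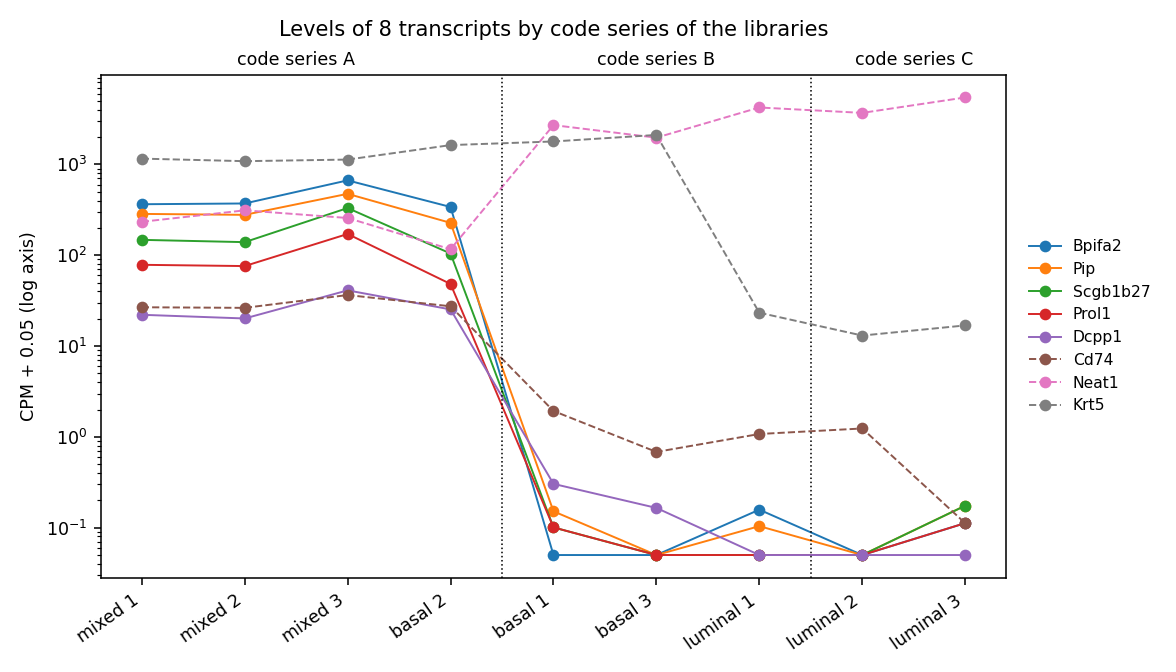
CPM plus 0.05 on a log axis for 8 transcripts in the 9 libraries, ordered by code series. Bpifa2, Pip, Scgb1b27, Prol1, Dcpp1 and Cd74 are high in the 4 series A libraries and Neat1 is low in them, while Krt5 is high in mixed and basal libraries of both series that hold them.

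Mixed aggregates differed from luminal ones in 5309 of 18051 tested genes (29.4%) at an adjusted p under 0.05, with 2749 higher (15.2%) and 2560 lower (14.2%). A change of at least 2-fold was reached by 1952 of the higher genes (10.8% of all tested) and 1562 of the lower ones (8.65%). All 3 mixed values lay above all 3 luminal values for 4518 genes (25%) and below them for 4704 (26.1%). The median log2 difference of all tested genes was -0.05. Leaving out luminal 1 gave 1623 higher and 1620 lower genes, and leaving out luminal 3 gave 1550 and 1417. The code-series fit called 370 higher and 121 lower genes, of which 349 and 96 were among the calls above. Of the 5309 calls, 90.53% kept their sign in it. The gene lists are read against the shares of 15.2% and 14.2%, and the counts of each list in the code-series fit are given with it.

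**Figure D2:**
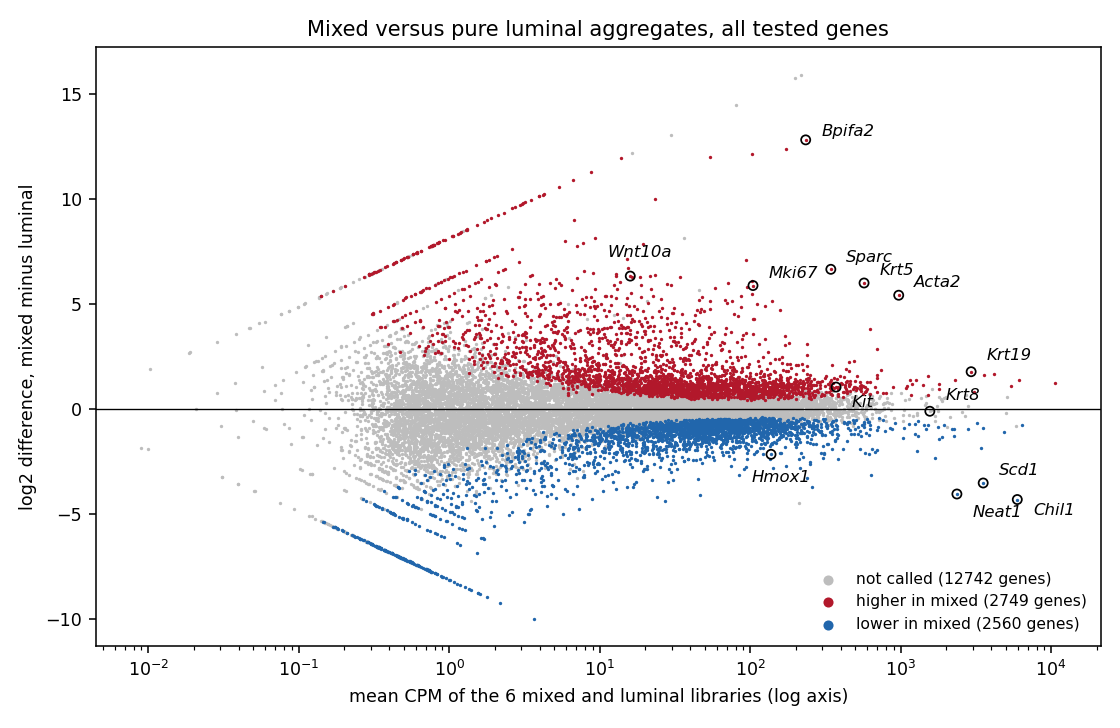
Log2 difference, mixed minus luminal, against the mean CPM of the 6 libraries (log axis) for each tested gene; red points are the 2749 genes called higher in mixed aggregates, blue points the 2560 called lower. Krt5, Acta2, Sparc and Mki67 lie far above 0, Krt8 lies close to 0 and Chil1, Neat1 and Scd1 lie far below it.

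Most genes that define basal cells were higher in mixed aggregates, and most genes of the contractile apparatus rose with them. Of 22 tested basal identity genes, 13 were higher (59.1%) and 1 lower, with a median log2 difference of 1.89 against -0.05 for all genes. The lower gene was Sox10 (-0.74 ± 0.16), with means of 332 CPM in mixed, 554 CPM in luminal and 359 CPM in basal libraries. Of 19 tested smooth-muscle contraction genes, 12 were higher (63.2%) and 0 lower, with a median of 2.11. The code-series fit called 9 higher and 1 lower, and 6 higher and 0 lower. The summed level of the contractile list was 4570 to 4759 CPM in mixed, 1535 to 1830 in luminal and 7288 to 8124 in basal libraries.

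Krt5, the basal type II keratin, lies at chr15:101615505-101621333 in mm39 and had 1157, 1084 and 1129 CPM in mixed 1, 2 and 3 and 23.2, 12.996 and 16.8 CPM in luminal 1, 2 and 3. The groups were far apart, at a log2 difference of 5.99 ± 0.26 (SE, adjusted p = 5.2e-07 by edgeR's quasi-likelihood test), and the basal libraries were higher still at 1787, 1630.3 and 2109 CPM. Trp63, the transcription factor that maintains basal cells, had 60.7, 63.3 and 58.9 CPM in the mixed and 10.5, 9.79 and 14.4 CPM in the luminal libraries (log2 difference 2.40 ± 0.22, adjusted p = 2.3e-05). Krt14, the partner keratin of Krt5, had 3658, 3478 and 2834 CPM in the mixed and 2502, 2554 and 1285 CPM in the luminal libraries, and although the groups did not overlap, the difference of 0.65 ± 0.25 did not pass (adjusted p = 0.068). It did pass by DESeq2 (adjusted p = 0.034), by limma-voom (0.037) and without a filter on low counts (0.026).

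Acta2, smooth-muscle actin, had 2026, 1883 and 1775 CPM in mixed 1, 2 and 3 and 69.3, 50.1 and 14.6 CPM in luminal 1, 2 and 3, with luminal 3 the lowest library and every mixed library far above the highest luminal one. The difference was 5.41 ± 0.48 (adjusted p = 1.8e-05). Myh11, the smooth-muscle myosin heavy chain, rose by 6.28 ± 0.35, Mylk, the kinase that activates it, by 6.38 ± 0.25, and Actg2, enteric smooth-muscle actin, by 5.997 ± 0.38 on the log2 scale. Over Myh11, Mylk and Actg2, no luminal library was above 3.50 CPM and no mixed library below 42.8 CPM. Vim, the intermediate filament of mesenchymal and basal cells, had 191, 163 and 204 CPM in the mixed and 1.67, 2.31 and 0.124 CPM in the luminal libraries (log2 difference 7.06 ± 0.69). Bcl11b, a zinc-finger factor of basal mammary cells, rose by 6.70 ± 0.58, Cdh3, P-cadherin, by 2.50 ± 0.24, and Pdpn, a membrane mucin, by 6.29 ± 0.37. The rises named in these paragraphs also passed in the code-series fit. Snai2, a zinc-finger repressor of basal cells, rose by 5.37 ± 0.61, and this call ended in the code-series fit (4.50, adjusted p = 0.080).

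**Figure D3:**
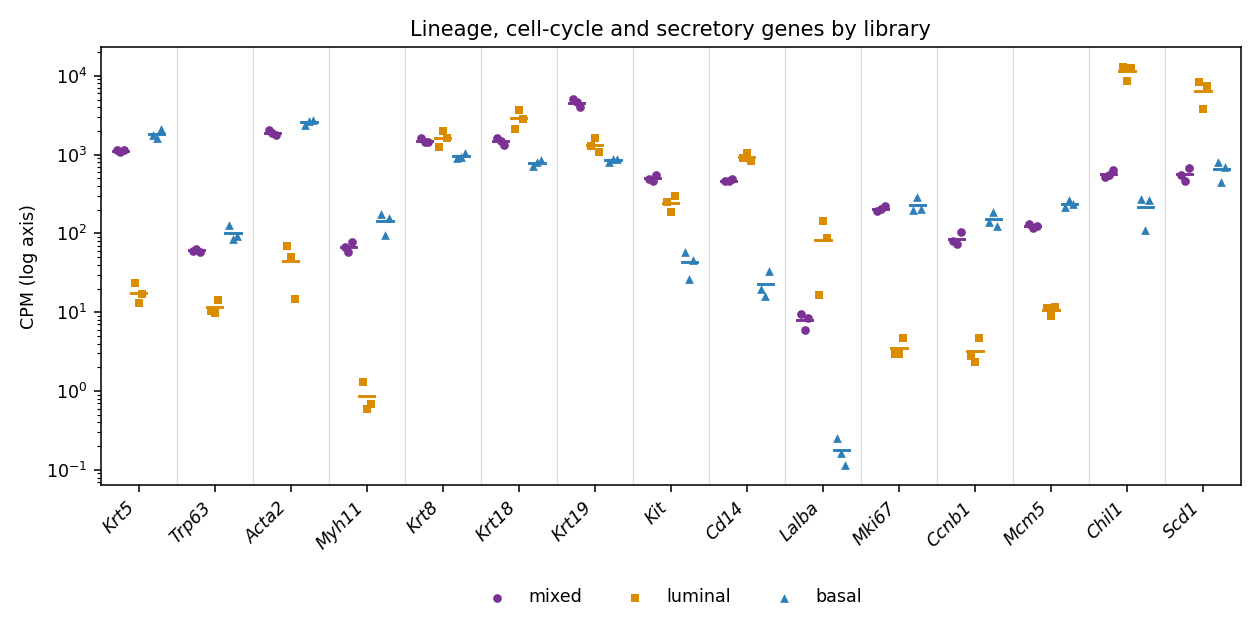
CPM by library on a log axis for 15 lineage, cell-cycle and secretory genes; each point is 1 library and the short bars are group means (n = 3). Mixed and luminal libraries are far apart for Krt5, Acta2, Myh11 and Mki67, overlap for Krt8, and mixed libraries lie above both pure kinds for Krt19 and Kit.

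Genes that define luminal cells did not fall by a common factor when basal cells made up the rest of the aggregate. Of 18 tested pan-luminal genes, 7 were lower (38.9%) and 1 higher, with a median log2 difference of -0.41. The summed level of the list overlapped between the kinds, at 12678 to 14446 CPM in mixed and 12241 to 15406 CPM in luminal libraries. That sum includes Krt19, the 1 higher gene, with means of 4537 CPM in mixed and 1336 CPM in luminal libraries. The overlap is thus not a sign that the other luminal genes were level. The code-series fit called 1 higher and 0 lower. Krt8 and Krt18, the paired keratins of simple epithelia, differed in their values. Krt8 had 1612, 1450.5 and 1429 CPM in the mixed and 1253, 1998 and 1626 CPM in the luminal libraries, which overlapped (log2 difference -0.12 ± 0.19, adjusted p = 0.66). Krt18 had 1636, 1477 and 1321 CPM in the mixed and 2133, 3722 and 2846 CPM in the luminal libraries and fell by 0.97 ± 0.21 on the log2 scale (adjusted p = 0.0066), a call that ended in the code-series fit (-0.54, adjusted p = 0.56).

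Krt19, a further luminal keratin, was higher in mixed aggregates than in either pure kind. It had 5014, 4601 and 3996 CPM in mixed 1, 2 and 3 and 1302, 1637 and 1069.5 CPM in luminal 1, 2 and 3, against 809, 882 and 878 CPM in the basal libraries. The difference from luminal was 1.76 ± 0.19 (adjusted p = 8.9e-05), and the code-series fit gave 1.74 (adjusted p = 0.045). Prom1, a membrane glycoprotein of luminal cells, fell from 248 ± 81.2 to 35.6 ± 19.7 CPM (mean ± SD, n = 3, as for all such pairs of means), and Cldn4, a tight-junction claudin, from 229.5 ± 61.7 to 83.3 ± 17.7 CPM (log2 differences -2.80 ± 0.45 and -1.46 ± 0.23). Neither fall passed in the code-series fit (adjusted p = 0.57 and 0.27).

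Luminal progenitor genes split. Of 16 tested, 4 were higher (2 without luminal 2 and 1 without luminal 3) and 6 lower, and the code-series fit called 2 in each direction. Kit, the stem-cell-factor receptor that marks these progenitors, lies at chr5:75735576-75817382 in mm39 and had 485, 467 and 548 CPM in mixed 1, 2 and 3 and 251, 186 and 296 CPM in luminal 1, 2 and 3, with the basal libraries at 57.4, 26.5 and 46.6 CPM. The mixed libraries were the highest of all 3 kinds, at a log2 difference of 1.03 ± 0.26 (adjusted p = 0.015). Without luminal 2 the value was 0.86 and the call ended (adjusted p = 0.052), while the code-series fit gave 1.97 (adjusted p = 0.037). Elf5, the transcription factor of the alveolar progenitor, had 161, 170.3 and 173 CPM in the mixed and 166, 150.3 and 131 CPM in the luminal libraries, an overlap (0.17 ± 0.16, adjusted p = 0.44). Aldh1a3, a retinaldehyde dehydrogenase used as a progenitor marker, had 898, 832 and 1162 CPM in the mixed and 555, 814 and 638 CPM in the luminal libraries, which did not pass (0.53 ± 0.28, adjusted p = 0.18). It did pass in the code-series fit (1.88, adjusted p = 0.025), with only the 6 mixed and luminal libraries (0.048) and without basal 2 (0.038). Cd14, a coreceptor for bacterial lipopolysaccharide and a progenitor surface marker, fell from 931 ± 109 to 469 ± 17.4 CPM, and Folr1, a folate receptor, from 134 ± 17.2 to 64.6 ± 8.06 CPM. The log2 differences were -0.99 ± 0.24 and -1.05 ± 0.24, and only that of Folr1 passed in the code-series fit as well (adjusted p = 0.029, against 0.92 for Cd14).

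Like most tested genes, most hormone-sensing genes did not pass the test. Of 12 tested, 2 were higher (16.7%) and 0 lower, against 15.2% and 14.2% of all tested genes. There was 1 higher gene without mixed 3, luminal 1 or luminal 3, and 1 in the code-series fit. Pgr, the progesterone receptor, had 138, 132 and 93.1 CPM in the mixed and 58.1, 103 and 91.1 CPM in the luminal libraries (0.53 ± 0.22, adjusted p = 0.097), and Foxa1, the pioneer factor of the oestrogen receptor, had 116, 115 and 109.7 CPM in the mixed and 59.1, 95.8 and 106 CPM in the luminal libraries (0.39 ± 0.22, adjusted p = 0.21). Cited1, a transcriptional coactivator of hormone-sensing cells, was 1 of the 2 higher genes, at 50.1, 34.1 and 38.2 CPM in the mixed and 3.51, 12.6 and 4.42 CPM in the luminal libraries (2.58 ± 0.42, adjusted p = 0.0013). Among 8 tested milk genes 1 was higher and 4 were lower, with 0 higher and 1 lower in the code-series fit. Lalba, the whey protein alpha-lactalbumin, had 9.38, 5.91 and 8.55 CPM in the mixed and 16.5, 142 and 88.1 CPM in the luminal libraries, with luminal 1 the lowest luminal library and all mixed libraries below it (-3.37 ± 0.59, adjusted p = 0.0022). Csn1s1, alpha-S1 casein, went the other way from 1.06 ± 0.630 to 8.60 ± 3.77 CPM, with 20.1 ± 10.5 CPM in the basal libraries. Neither milk call passed in the code-series fit (adjusted p = 0.88 and 0.13). Plin2, which coats lipid droplets, fell from 553 ± 158 to 144 ± 21.9 CPM (-1.94 ± 0.24, adjusted p = 0.00019) and did so in that fit too (-2.31, adjusted p = 0.027).

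Nearly all genes of the cell cycle were higher in mixed aggregates. Of 30 tested mitosis genes, 29 were higher (96.7%) and 0 lower, with a median log2 difference of 4.23. Of 30 tested DNA replication genes, 29 were higher and 0 lower, with a median of 2.44. The code-series fit called 29 and 19 of them higher and none lower in either list. The summed mitosis level was 2768 to 3079 CPM in mixed, 170.3 to 209 CPM in luminal and 3966 to 4547 CPM in basal libraries, lowest in the luminal ones.

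Mki67, the Ki-67 antigen of cycling cells, lies at chr7:135291513-135318090 in mm39 and had 190.2, 202 and 223 CPM in mixed 1, 2 and 3 and 2.91, 2.97 and 4.67 CPM in luminal 1, 2 and 3. The basal libraries, at 199.7, 286 and 202 CPM, overlapped the mixed ones, and the difference from luminal was 5.87 ± 0.26 (adjusted p = 5.2e-07). Top2a, the topoisomerase that untangles chromosomes, had 229, 222 and 272 CPM in the mixed and 8.36, 6.17 and 9.96 CPM in the luminal libraries (4.88 ± 0.24). Ccnb1, cyclin B1, which starts mitosis, had 79.3, 73.4 and 103 CPM in the mixed and 2.81, 2.31 and 4.67 CPM in the luminal libraries (4.71 ± 0.30), and Birc5, survivin, rose by 5.46 ± 0.29. Over these genes no luminal library was above 9.96 CPM. Of the replication genes, Mcm5, a subunit of the replicative helicase, had 131, 118 and 124 CPM in the mixed and 11.4, 9.02 and 11.6 CPM in the luminal libraries (3.54 ± 0.18), Rrm2, which makes deoxynucleotides, rose by 4.27 ± 0.32, and Uhrf1, which copies DNA methylation, by 4.003 ± 0.21.

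The regulators that admit cells to the cycle moved less evenly. Of 16 tested G1 control genes, 9 were higher and 3 lower, with 3 higher in the code-series fit. Ccnd2, cyclin D2, had 218, 188 and 197 CPM in the mixed and 5.50, 0.653 and 2.55 CPM in the luminal libraries (6.10 ± 0.57, adjusted p = 2.8e-05). Ccnd1, cyclin D1, had 199, 187 and 192 CPM in the mixed and 12.1, 23.7 and 13.3 CPM in the luminal libraries (3.56 ± 0.35, adjusted p = 3.7e-05), though 23.4% of its exon bases are shared with another gene name. Ccne1, cyclin E1, counted in the replication list and not in this one, rose by 3.96 ± 0.23. The 3 lower genes of the G1 list were Rb1, Mdm2 and Rbl2 (-0.95 ± 0.19, -0.95 ± 0.22 and -0.85 ± 0.28). Cdk6, the kinase partner of the D cyclins, was above both pure kinds at 123 ± 24.04 CPM against 31.1 ± 10.9 in luminal and 51.6 ± 18.9 in basal libraries, and its call ended in the code-series fit (adjusted p = 0.21).

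Promoters of the mitosis genes are shown because 29 of 30 of them were higher and because CCAAT boxes and the cell-cycle homology element TTTGAA are motifs known from such promoters. The windows are the 250 bases before the transcription start from RefSeq, build GRCm38.p6, a build older than that of the counts, and 24 of the 30 genes had one. CCAAT, searched on both strands, was in 20 of the 24 (83.3%) against 37.5% of 27025 genes, and TTTGAA, on both strands, was in 8 (33.3%) against 18.3%. CCAAT was also in 62.5% of 24 replication genes and 68.8% of 16 contractile genes, and TTTGAA in 12.5% and 18.8% of them, so the share for CCAAT was above that of all genes in each of these lists. A match is a description of letters and not of a bound site. The windows of Ccnb1 (chr13:100786487-100786736, minus strand), Mki67 (chr7:135716380-135716629, minus strand) and Top2a (chr11:99024190-99024439, minus strand) are printed 5′ to 3′ in the direction of the gene, with every CCAAT and TTTGAA, on either strand, in capitals.
Ccnb1: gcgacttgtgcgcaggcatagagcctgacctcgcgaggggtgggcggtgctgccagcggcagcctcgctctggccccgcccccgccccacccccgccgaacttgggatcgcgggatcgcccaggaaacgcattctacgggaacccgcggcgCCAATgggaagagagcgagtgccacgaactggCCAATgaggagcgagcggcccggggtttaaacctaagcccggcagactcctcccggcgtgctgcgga
Mki67: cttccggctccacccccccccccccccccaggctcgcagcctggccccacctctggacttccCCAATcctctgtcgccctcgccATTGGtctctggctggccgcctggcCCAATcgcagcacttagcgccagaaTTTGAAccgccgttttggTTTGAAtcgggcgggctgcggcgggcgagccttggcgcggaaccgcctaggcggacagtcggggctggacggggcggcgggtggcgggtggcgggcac
Top2a: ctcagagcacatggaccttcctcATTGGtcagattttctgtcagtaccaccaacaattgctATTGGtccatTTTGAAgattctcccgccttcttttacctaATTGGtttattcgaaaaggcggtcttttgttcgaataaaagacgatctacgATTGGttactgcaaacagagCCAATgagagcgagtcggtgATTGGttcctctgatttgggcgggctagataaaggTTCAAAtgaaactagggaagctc

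More matrix genes were higher than lower in mixed aggregates, and many were not called. Of 23 tested basement-membrane genes, 12 were higher (52.2%) and 3 lower (1 without mixed 2, mixed 3, luminal 1 or luminal 3), and of 25 tested interstitial matrix genes 14 were higher (56.0%) and 0 lower. The code-series fit called 8 and 8 higher and none lower. The summed level of the basement-membrane list was 2637 to 2650.05 CPM in mixed and 1289.95 to 1718 CPM in luminal libraries, while that of the interstitial list overlapped, at 1975 to 2025 CPM in mixed and 1295 to 2365 CPM in luminal libraries. Sparc, a collagen-binding matrix glycoprotein, had 696, 689 and 654 CPM in mixed 1, 2 and 3 and 13.5, 4.93 and 1.87 CPM in luminal 1, 2 and 3, with the luminal libraries spread over a wide range and all of them far below the mixed ones (6.64 ± 0.61, adjusted p = 2.3e-05). Col17a1, the hemidesmosomal collagen, had 239.7, 185 and 219.6 CPM in the mixed and 8.20, 2.67 and 9.65 CPM in the luminal libraries (4.97 ± 0.39, adjusted p = 7.7e-06). Lama1, the laminin alpha-1 chain, rose by 4.41 ± 0.37 to a low level of 6.32 ± 0.633 CPM, against 41.9 ± 8.39 CPM in basal libraries. Lama5, the laminin alpha-5 chain, was lower, at 121, 117 and 119 CPM in the mixed and 169, 184 and 181 CPM in the luminal libraries (-0.58 ± 0.15, adjusted p = 0.015), a call that ended in the code-series fit (adjusted p = 0.82).

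Among interstitial genes, Col5a2, a fibrillar collagen chain, rose by 6.46 ± 0.50 and Col6a1, a microfibrillar collagen chain, by 6.24 ± 0.81. Col1a2, a collagen I chain, had 2.75, 5.78 and 9.86 CPM in the mixed libraries and 0 counts in all 3 luminal libraries. Against the luminal floor of 3 counts per library (0.176 CPM on average) its mean was at least 34.9-fold higher in mixed aggregates. Fbln1, fibulin-1, had 32.4, 29.2 and 33.1 CPM in the mixed and 0.648, 0.237 and 1.18 CPM in the luminal libraries (5.52 ± 0.38, adjusted p = 3.5e-06). Fn1, fibronectin, had 132, 83.7 and 100.5 CPM in the mixed and 47.6, 48.6 and 110.4 CPM in the luminal libraries, which overlapped because of luminal 3 (0.61 ± 0.34, adjusted p = 0.19). Without luminal 3 it was 1.12 (adjusted p = 0.024).

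Integrin and adhesion genes were called in both directions. Of 21 tested, 1 was higher (4.76%) and 4 were lower (19%), against 15.2% and 14.2% of all tested genes. The higher gene was Tln1, which encodes talin-1 and not an integrin subunit (0.73 ± 0.17). The 1 higher gene became 2 without luminal 2 or luminal 3 and 3 without basal 2. None was called in either direction in the code-series fit. Itgb4, the beta-4 integrin of hemidesmosomes that binds laminin, had 252, 226 and 258 CPM in the mixed and 193, 194 and 190.0 CPM in the luminal libraries and did not pass (0.35 ± 0.15, adjusted p = 0.092), except with only the 6 mixed and luminal libraries (0.045) and without basal 2 (0.043). Itgb5 and Itgb3, which pair with the alpha-v chain to bind vitronectin, fell, Itgb5 from 180.2 ± 28.7 to 56.5 ± 8.76 CPM and Itgb3 from 262 ± 57.2 to 114 ± 16.8 CPM (-1.67 ± 0.22 and -1.20 ± 0.21). Neither fall passed in the code-series fit (adjusted p = 0.067 and 0.10). Cdh1, E-cadherin, had 434, 430.0 and 505 CPM in the mixed and 505, 375 and 618 CPM in the luminal libraries and overlapped (-0.13 ± 0.21, adjusted p = 0.67). Cdh2, N-cadherin, rose from 0.197 ± 0.101 to 6.22 ± 2.44 CPM (4.95 ± 0.45, adjusted p = 2e-05).

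**Figure D4:**
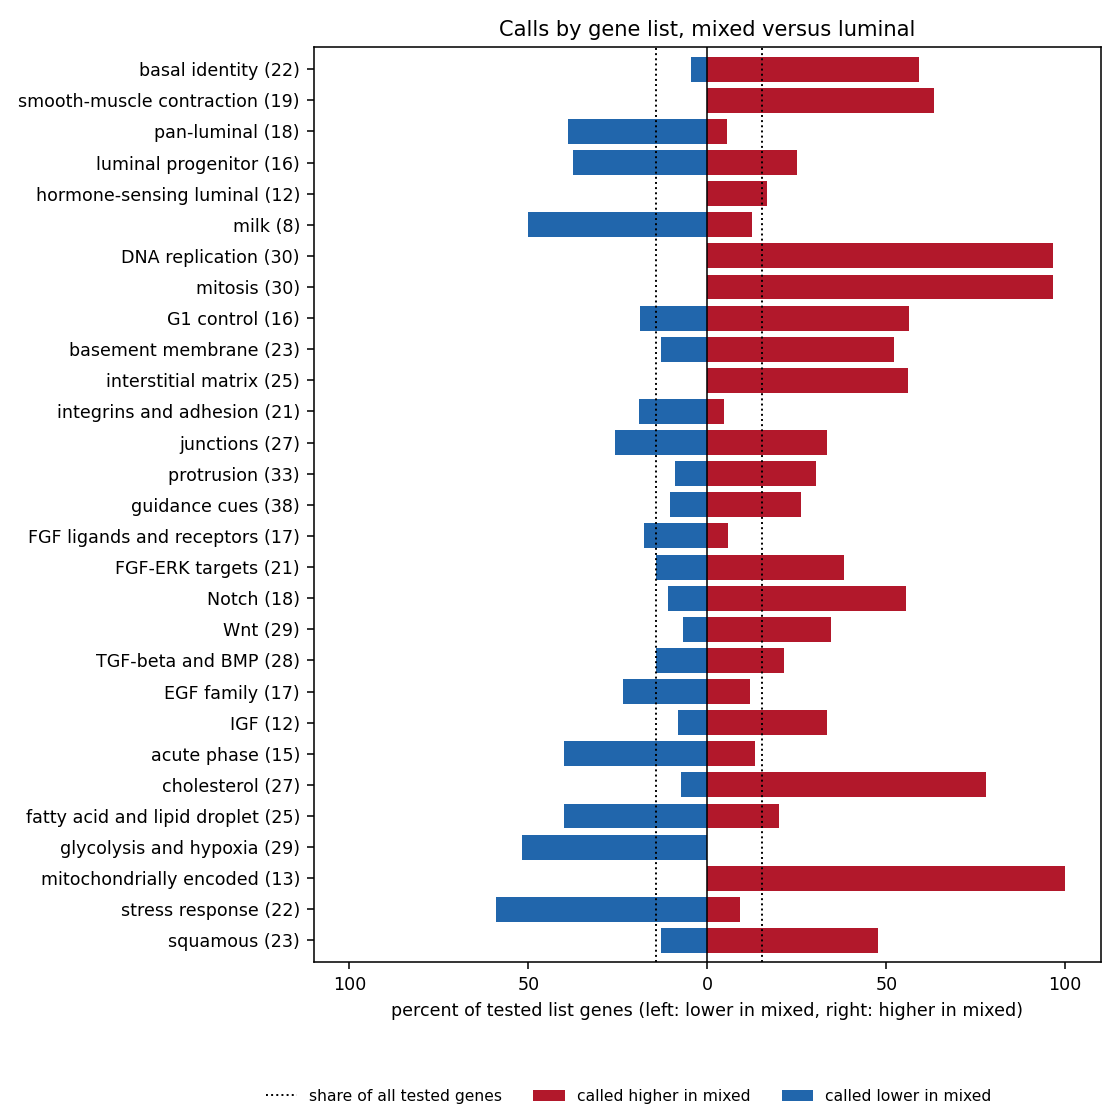
Percent of the tested genes of each list called higher (right, red) or lower (left, blue) in mixed than luminal aggregates, with the number tested in brackets; dotted lines mark the shares of all tested genes, 15.2% and 14.2%. The mitosis, replication and mitochondrially encoded lists lie almost wholly to the right, and the glycolysis and stress lists mostly to the left.

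Genes of the FGF pathway did not move as 1 group. Of 17 tested ligands, receptors and coreceptors, 1 was higher and 3 were lower, and none passed in the code-series fit. Leaving out mixed 1 or basal 2 gave 2 higher genes, and leaving out mixed 3, luminal 1 or luminal 3 gave 0. Fgf10, which the beads supply as protein, had 0 counts in all 9 libraries. Fgfr2, its receptor, had 30.04, 34.5 and 43.7 CPM in the mixed and 29.1, 31.3 and 68.8 CPM in the luminal libraries, an overlap (-0.25 ± 0.34, adjusted p = 0.60), against 114, 56.7 and 84.8 CPM in the basal libraries. Fgfr1 had 166, 128 and 167 CPM in the mixed and 350.1, 357 and 297 CPM in the luminal libraries and fell by 1.12 ± 0.22 on the log2 scale (adjusted p = 0.0035), a call that ended in the code-series fit (-0.50, adjusted p = 0.62). Of 21 tested FGF-ERK target genes, 8 were higher (4 without mixed 1 or luminal 1 and 5 without luminal 2) and 3 lower, with 1 higher in the code-series fit. Etv4, an ETS factor induced by FGF signalling, had 16.7, 11.4 and 12.96 CPM in the mixed and 4.32, 7.83 and 5.35 CPM in the luminal libraries against 64.9, 75.1 and 67.9 CPM in basal libraries (1.23 ± 0.25, adjusted p = 0.0047). Dusp6, an ERK phosphatase and feedback gene, had 81.9, 76.2 and 73.3 CPM in the mixed and 52.6, 50.4 and 67.7 CPM in the luminal libraries and did not pass (0.44 ± 0.17, adjusted p = 0.069). It did pass without luminal 3 or without basal 2 (adjusted p = 0.049 and 0.046). Dusp4, a related phosphatase, fell from 55.8 ± 31.1 to 5.36 ± 1.74 CPM (-3.37 ± 0.44) and Ier3, an early-response gene, from 826 ± 195 to 418 ± 35.7 CPM (-0.98 ± 0.19). The calls of Etv4, Dusp4 and Ier3 ended in the code-series fit (adjusted p = 0.19, 0.25 and 0.37).

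Notch ligands and a receptor were higher in mixed aggregates. Of 18 tested Notch genes, 10 were higher (55.6%) and 2 lower (0 without mixed 1 or luminal 3 and 1 without luminal 1 and 4 without basal 2), with 4 higher and 0 lower in the code-series fit. Jag2, a Notch ligand, had 41.3, 33.8 and 50.8 CPM in mixed 1, 2 and 3 and 2.59, 3.09 and 4.05 CPM in luminal 1, 2 and 3, with the basal libraries highest at 109, 76.3 and 121 CPM (3.70 ± 0.27, adjusted p = 4.9e-06). Dll1, a second ligand, had 29.3, 37.96 and 43.6 CPM in the mixed and 6.42, 5.10 and 3.67 CPM in the luminal libraries (2.86 ± 0.28, adjusted p = 3.5e-05). Jag1 had 40.5, 56.7 and 42.2 CPM in the mixed and 9.34, 9.61 and 8.78 CPM in the luminal libraries (2.33 ± 0.20, adjusted p = 1.4e-05). For all 3 ligands the mixed and luminal values did not overlap, and all 3 calls held in the code-series fit.

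The receptors differed in direction. Notch3, a receptor of luminal progenitors, had 162, 140.4 and 126 CPM in mixed 1, 2 and 3 and 47.4, 61.7 and 67.4 CPM in luminal 1, 2 and 3, above the basal libraries at 91.6, 74.2 and 71.6 CPM as well (1.28 ± 0.19, adjusted p = 0.00066). Notch1, by contrast, had 145, 157 and 165 CPM in the mixed and 257, 208 and 277 CPM in the luminal libraries (-0.67 ± 0.18, adjusted p = 0.017), a call that ended without mixed 1 (-0.62, adjusted p = 0.062), luminal 1 (-0.65, 0.056) or luminal 3 (-0.59, 0.066) and in the code-series fit (-0.36, 0.75). Of the target genes, Hes1 had 200.2, 182 and 163 CPM in the mixed and 64.6, 72.2 and 49.7 CPM in the luminal libraries and lay above both pure kinds (1.55 ± 0.21, adjusted p = 0.00036), and Hey2 rose from 0.487 ± 0.386 to 5.97 ± 2.88 CPM (3.60 ± 0.82, adjusted p = 0.0085). Hey1, a target and luminal progenitor gene, had 188, 178 and 186 CPM in the mixed and 233, 247 and 251 CPM in the luminal libraries and did not pass (-0.41 ± 0.20, adjusted p = 0.14), although it passed without basal 2 (adjusted p = 0.016), without basal 2 and mixed 3 together (0.035) and with only the 6 mixed and luminal libraries (0.043). The calls of Hes1 and Hey2 ended in the code-series fit (adjusted p = 0.28 and 0.40), and Jag1 and Hes1 were chosen after their values were seen.

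**Figure D5:**
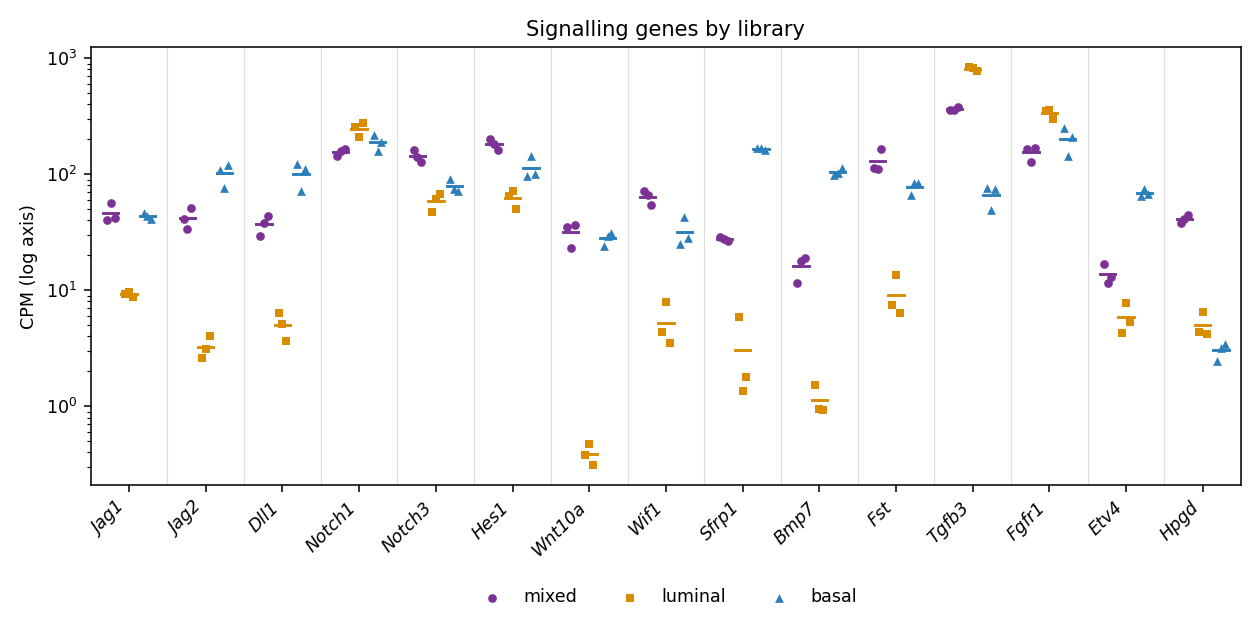
CPM by library on a log axis for 15 signalling genes; each point is 1 library and the short bars are group means (n = 3). Jag1, Jag2, Dll1, Wnt10a, Sfrp1 and Bmp7 are lowest in luminal libraries, and Sfrp1 and Bmp7 are also far lower in mixed than in basal ones. Tgfb3 and Fgfr1 are highest in luminal libraries, and Notch3, Hes1, Wif1, Fst and Hpgd are highest in mixed libraries.

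A Wnt ligand and secreted Wnt antagonists were among the higher genes. Of 29 tested, 10 were higher (34.5%) and 2 lower (1 without mixed 1 or luminal 3 and 0 without mixed 2, mixed 3 or luminal 2), with 4 higher and 1 lower in the code-series fit. Wnt10a, a Wnt ligand, lies at chr1:74830675-74843338 in mm39 and had 35.1, 23.01 and 36.4 CPM in mixed 1, 2 and 3 and 0.378, 0.475 and 0.311 CPM in luminal 1, 2 and 3. The luminal libraries were all under 0.5 CPM, mixed and basal libraries overlapped, and the difference was 6.32 ± 0.33 (adjusted p = 8.6e-07). Secreted Wnt antagonists rose too, Wif1 from 5.27 ± 2.36 to 63.6 ± 8.69 CPM (3.59 ± 0.33) and Sfrp1 from 3.04 ± 2.52 to 27.6 ± 1.33 CPM (3.17 ± 0.41). Wif1 was above the basal libraries (25.1, 42.5 and 28.002 CPM) as well, and Sfrp1 far below them (168, 169 and 160.3 CPM).

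Among 28 tested TGF-beta and BMP genes, 6 were higher and 4 lower (2 without mixed 2, luminal 2 or luminal 3), with 2 higher in the code-series fit. Bmp7, a BMP ligand, had 11.4, 17.8 and 18.8 CPM in the mixed and 1.51, 0.949 and 0.934 CPM in the luminal libraries (3.81 ± 0.28, adjusted p = 5.1e-06). Fst, follistatin, which binds and blocks activin, had 113, 110.4 and 166 CPM in the mixed and 7.501, 13.5 and 6.41 CPM in the luminal libraries, above the basal libraries at 65.6, 83.7 and 84.5 CPM (3.83 ± 0.30, adjusted p = 8e-06). Tgfb3, a TGF-beta ligand, fell from 810.4 ± 32.995 to 365 ± 13.6 CPM (-1.15 ± 0.18, adjusted p = 0.0012), which did not pass in the code-series fit (-0.58, adjusted p = 0.35). Of 12 tested IGF genes, 4 were higher and 1 lower, with 3 higher in the code-series fit. The binding proteins led, with Igfbp2 at 145, 149.8 and 148 CPM in the mixed and 8.63, 2.43 and 1.56 CPM in the luminal libraries (5.12 ± 0.51) and Igfbp3 at 164, 140.1 and 93.8 CPM in the mixed and 6.10, 3.50 and 1.18 CPM in the luminal libraries (5.19 ± 0.46). Of 17 tested EGF family genes, 2 were higher (1 without luminal 1 and 4 without luminal 2) and 4 lower (2 without mixed 1 or mixed 2 and 1 without luminal 1 or luminal 3), with 0 higher and 1 lower in the code-series fit. Errfi1, an inhibitor of the EGF receptor, fell from 360.2 ± 144 to 119.6 ± 10.5 CPM (-1.59 ± 0.24, adjusted p = 0.00097).

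Genes of cell movement were mixed in direction. Of 33 tested protrusion genes, 10 were higher (6 without mixed 1 and 4 without luminal 1 and 5 without luminal 3) and 3 lower, and of 38 tested guidance genes 10 were higher (6 without luminal 1) and 4 lower (2 without mixed 3 or luminal 1 and 7 without basal 2). In the code-series fit 1 protrusion gene was higher and none lower, and 3 guidance genes were higher and 1 lower. Diaph3, a formin that elongates actin filaments, had 29.7, 29.5 and 52.9 CPM in the mixed and 1.40, 1.54 and 1.49 CPM in the luminal libraries (4.65 ± 0.37, adjusted p = 8.8e-06). Sema5a, a semaphorin, rose by 3.87 ± 0.37, and Slit2, a repulsive guidance ligand, by 2.44 ± 0.44. Adam12, a membrane metalloprotease, had 27.4, 32.6 and 30.8 CPM in mixed 1, 2 and 3 and 0.540, 0.0593 and 0 CPM in luminal 1, 2 and 3, and 4.51, 4.46 and 6.96 CPM in the basal libraries (7.13 ± 0.70, adjusted p = 3.4e-05). Its mixed values were above all values of both pure kinds. Axl, a receptor tyrosine kinase of migrating cells, had 71.2, 61.2 and 73.8 CPM in the mixed and 10.4, 10.9 and 13.4 CPM in the luminal libraries (2.57 ± 0.18, adjusted p = 4.7e-06). Ccn2 and Ccn5, matricellular proteins, fell, Ccn2 from 223 ± 42.8 to 78.4 ± 15.2 CPM and Ccn5 from 506 ± 106 to 101 ± 13.3 CPM (-1.51 ± 0.24 and -2.32 ± 0.24). Both calls ended in the code-series fit (adjusted p = 0.38 and 0.43), and 23.2% of the exon bases of Ccn2 are shared with another gene name.

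Of the 12 genes with the lowest differences among those without overlap and with a mean of at least 10 CPM, Chil1, Neat1 and Scd1 had at least 3688 CPM in every luminal library, and the others had luminal means of 19.7 to 479.7 CPM. Chil1, a secreted chitinase-like protein of luminal cells, lies at chr1:134109914-134117919 in mm39 and had 514, 553 and 632 CPM in mixed 1, 2 and 3 and 12825, 8602 and 12573 CPM in luminal 1, 2 and 3. The mixed libraries were close to one another and all far below the luminal ones (-4.32 ± 0.35, adjusted p = 1e-05), and the code-series fit gave -3.20 (adjusted p = 0.0020). Of 15 tested acute-phase genes 6 were lower and 2 higher, the latter 0 without luminal 1 and 1 without any 1 of the other libraries except basal 2, and the code-series fit called 1 higher and 2 lower. Lrg1, an acute-phase glycoprotein, had 230.0, 215 and 214 CPM in the mixed and 918, 1008 and 879.7 CPM in the luminal libraries (-2.09 ± 0.19), and Lcn2, lipocalin-2, fell from 2971 ± 679.6 to 1519 ± 109.8 CPM (-0.97 ± 0.21), the latter not passing in the code-series fit (adjusted p = 0.22). Also among the 12 lowest were Chrdl2, a BMP antagonist (-4.10 ± 0.30), and Bglap3 and Acaa1b (-3.70 ± 0.37 and -4.22 ± 0.46), each with near-identical copies that make their counts uncertain.

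More stress genes and more glycolysis and hypoxia genes were lower than higher. Of 22 tested stress genes, 13 were lower (59.1%) and 2 higher, and of 29 tested glycolysis and hypoxia genes 15 were lower (51.7%) and 0 higher. The code-series fit called 8 and 2 of them lower and none higher. The 2 higher stress genes were 1 without any 1 mixed library, luminal 1, luminal 3 or basal 3. Hmox1, haem oxygenase, had 47.8, 50.1 and 52.1 CPM in the mixed and 384, 141 and 149.5 CPM in the luminal libraries, with luminal 1 the highest by far (-2.17 ± 0.36, adjusted p = 0.0016). Without luminal 1 it was -1.55 (adjusted p = 0.0015). Trib3, a pseudokinase induced by amino-acid shortage, had 17.5, 18.1 and 20.9 CPM in the mixed and 132, 66.9 and 81.3 CPM in the luminal libraries (-2.31 ± 0.26, adjusted p = 9.4e-05). Vegfa, the angiogenic factor induced by low oxygen, had 32.5, 29.6 and 32.1 CPM in the mixed and 147, 93.1 and 118 CPM in the luminal libraries, with basal libraries at 31.7, 27.9 and 30.2 CPM, level with the mixed ones (-1.93 ± 0.19, adjusted p = 3.5e-05).

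Lipid genes split by pathway. Of 27 tested cholesterol genes, 21 were higher (77.8%) and 2 lower, with a median log2 difference of 1.54 and 7 higher in the code-series fit. Hsd17b7, a late enzyme of the pathway, had 35.2, 31.6 and 35.6 CPM in the mixed and 3.02, 5.16 and 7.10 CPM in the luminal libraries (2.75 ± 0.34, adjusted p = 0.00020). Hmgcs1, an early enzyme, rose from 37.9 ± 11.4 to 186 ± 57.3 CPM (2.29 ± 0.29). The 2 lower genes were sterol exporters, of which Abca1 had 70.3, 58.6 and 76.8 CPM in the mixed and 580.1, 329 and 371 CPM in the luminal libraries (-2.64 ± 0.43, adjusted p = 0.0014). Basal 2, at 55.99 CPM, was also low for Abca1 against 230.2 and 191 CPM in basal 1 and 3. Of 25 tested fatty-acid genes, 5 were higher and 10 lower, with 1 higher and 1 lower in the code-series fit. Scd1, the desaturase that makes oleate, had 547, 462 and 673 CPM in mixed 1, 2 and 3 and 8295, 3787 and 7423 CPM in luminal 1, 2 and 3, with luminal 2 the lowest luminal library and still several times above any mixed one (-3.54 ± 0.33, adjusted p = 2.8e-05). Fasn, fatty-acid synthase, rose from 158 ± 20.2 to 347 ± 24.6 CPM (1.14 ± 0.17, adjusted p = 0.00079). The calls of Hmgcs1 and Abca1 ended in the code-series fit (adjusted p = 0.085 and 0.093).

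Transcripts of the mitochondrial genome were all higher, 13 of 13 tested, and 1 of them in the code-series fit. mt-Co2, a cytochrome oxidase subunit, had 368, 309 and 371 CPM in the mixed and 99.2, 105 and 90.7 CPM in the luminal libraries and 187, 266 and 161 CPM in the basal libraries (1.83 ± 0.20, adjusted p = 9.6e-05), a call that ended in the code-series fit (1.20, adjusted p = 0.079). All gene names that begin with mt-, not only these 13, held 3.67 to 3.98% of counts in mixed, 1.32 to 1.63% in luminal and 2.89 to 3.07% in basal libraries. Basal 2 stood with the other basal libraries in this share, but for mt-Co2 it was above both of them. The number of gene names with a count was 18461 to 21322 in mixed and 22668 to 27307 in luminal libraries. It was 25031, 21633 and 24340 in basal 1, 2 and 3, lowest in basal 2, the series A library. The part of either measure in the results above was not tested.

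All 3 mixed values were above all 6 values of the pure kinds for 907 tested genes (5.02%) and below them for 1300 (7.2%), which is described without a test against basal. Krt19, Kit, Cdk6, Notch3, Hes1, Hey2, Wif1, Fst and Adam12, described above, are among the former. Hpgd, which inactivates prostaglandins, had 37.8, 40.9 and 44.7 CPM in mixed 1, 2 and 3 and 4.37, 6.53 and 4.17 CPM in luminal 1, 2 and 3, and 2.43, 3.20 and 3.45 CPM in basal libraries (3.03 ± 0.27 against luminal, adjusted p = 2e-05). Its mixed values were several times above any value of either pure kind, and basal 2 lay between basal 1 and 3. Rtp4, an interferon-induced transporter of receptors, had 65.4, 48.7 and 66.2 CPM in the mixed and 13.9, 12.3 and 8.46 CPM in the luminal libraries and 9.03, 4.46 and 19.2 CPM in basal libraries (2.38 ± 0.43, adjusted p = 0.0025). Both passed in the code-series fit (adjusted p = 0.025 and 0.022). Penk, proenkephalin, had 38.2, 44.5 and 12.6 CPM in the mixed and 1.89, 6.47 and 9.27 CPM in the luminal libraries, with mixed 3 well below mixed 1 and 2 (2.44 ± 0.56, adjusted p = 0.0091). Snorc, a small membrane proteoglycan, had 187, 172 and 110.4 CPM in the mixed and 32.6, 18.04 and 9.71 CPM in the luminal libraries (2.96 ± 0.43, adjusted p = 0.00065). On the low side, Clca3a2, a secreted chloride-channel regulator, had 23.2, 22.8 and 19.3 CPM in the mixed and 130.5, 148 and 205 CPM in the luminal libraries and 363, 154 and 358 CPM in basal libraries (-2.89 ± 0.32, adjusted p = 8.6e-05). Mtmr7, a lipid phosphatase, had 5.49, 5.48 and 2.18 CPM in the mixed and 19.5, 28.01 and 34.05 CPM in the luminal libraries (-2.63 ± 0.36, adjusted p = 0.00044). The calls of Penk, Snorc, Clca3a2 and Mtmr7 ended in the code-series fit (adjusted p = 0.15, 0.40, 0.059 and 0.21).

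Markers of cells other than epithelium differed in level from list to list. Of 14 immune markers 8 were tested, with 5 higher (3 without luminal 1, luminal 2 or luminal 3), 1 lower and none in either direction in the code-series fit. Their summed level was 59.2 to 87.1 CPM in mixed, 24.7 to 56.1 in luminal and 6.03 to 63.0 in basal libraries. The lower gene was Cd68, a macrophage marker. It had 5.84, 3.815 and 7.35 CPM in the mixed and 24.8, 20.9 and 50.2 CPM in the luminal libraries, and made up most of the luminal sums. Cd74, the invariant chain of antigen presentation, had 26.7, 26.3 and 36.4 CPM in the mixed and 1.03, 1.19 and 0.0622 CPM in the luminal libraries, and 1.88, 27.3 and 0.632 CPM in basal 1, 2 and 3. Lyz2, lysozyme of phagocytes, had 8.30, 33.7 and 13.3 CPM in the mixed and 0, 0.0593 and 0.124 CPM in the luminal libraries, and H2-Aa, an MHC class II chain, 5.09, 5.85 and 2.56 CPM in the mixed and 0.0540, 0 and 0.0622 CPM in the luminal libraries, with basal 2 at 15.4 and 5.95 CPM and no other basal library above 0.152 CPM. The call of H2-Aa ended without luminal 1, 2 or 3 (adjusted p = 0.065, 0.063 and 0.067). The defining marker Ptprc, CD45, was at 0.744, 0.554 and 0.0545 CPM in mixed 1, 2 and 3 and at 0, 0 and 0.187 CPM in the luminal libraries, with 0.220 CPM in basal 2 and 0 in basal 1 and 3. Mixed 1, mixed 2 and basal 2 were above the level of 3 counts in their own library. Of 11 fibroblast markers 6 were tested and 3 were higher (2 in the code-series fit), among them Col1a2 and Fbln1, which reached 131 CPM in basal 2, with a summed level of 46.5 to 68.6 CPM in mixed, 6.37 to 11.3 in luminal and 138 to 147 in basal libraries. None of the 5 tested endothelial markers passed in either direction or in the code-series fit, with 1 higher without mixed 2 or without basal 2. Adipoq, the adipocyte hormone, was at 0 in all 3 mixed libraries, and the only tested adipocyte marker of 7, Lipe, a lipase, was lower in them, though not in the code-series fit. Of 6 Schwann cell markers 5 were tested and 2 were lower, with none in the code-series fit. These were Sox10, a transcription factor that mammary epithelium expresses too, at 340.6, 347.7 and 306 CPM in mixed 1, 2 and 3 and 597, 477 and 588 CPM in luminal 1, 2 and 3, and Mbp, a myelin protein, at 37.1 to 42.1 CPM in mixed and 57.2 to 71.1 CPM in luminal libraries. The summed Schwann list was at 333 to 389 CPM in mixed, 513 to 655 CPM in luminal and 349 to 475.5 CPM in basal libraries, and Foxd3 was at 0 in all 9 libraries. The part of these markers in the differences above was not tested.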

How the data were processed

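RNA of 9 libraries was extracted with a small-input kit and made into stranded mRNA libraries, per the labels' protocols. The authors deposited whole-number counts per gene name, made with featureCounts 2.0.1 from read pairs over exons, per the file headers. Strand was not used and multi-mapping reads were not counted there, so close copies are undercounted and reads of overlapping genes are dropped or cannot be told apart. Trim Galore, Subread and the build mm39 are named in the submitters' processing notes, with aligner settings and annotation release not given in the sources used here. No count column was left out.

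The analysis used edgeR 4.0.16 (R 4.3.3). All 9 libraries passed through filterByExpr and TMM scaling and were fitted together by edgeR's quasi-likelihood model (robust, 6 residual degrees of freedom), and the contrast mixed minus luminal was tested two-sided with Benjamini-Hochberg adjustment over 18051 genes at 0.05. CPM of single genes uses the TMM-scaled library size, does not correct for gene length, and ± after a log2 difference is its standard error. Summed levels of lists use the plain library size instead. The TMM factors ran from 0.936 (mixed 1) to 1.15 (basal 1), so sums and single values differ in scale. On simulated counts for this comparison (18051 genes), 100 genes were changed 2-fold and 100 were changed 4-fold, with no effect of code series. Of these, 22% and 60% were recovered, and 2.38% of calls were false. Far fewer genes were changed there than were called in the data, so these rates describe that setting only. Mixed and luminal libraries with the same title number did not deviate together (r of -0.02 to -0.06), so they were not treated as pairs, and no pair of libraries was a duplicate. The descriptions number the luminal and some basal libraries otherwise, and pairing by those numbers was not tested.

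The comparison, the 43 gene lists and the code series were chosen with earlier results of these data known. Named genes are the 12 highest and 12 lowest differences among genes without overlap whose mean reached 10 CPM, up to 3 called genes per list and direction with at least 2 CPM, a panel of 64 genes, and genes outside both pure kinds. Values of some genes are not reported here. Alternatives were other scalings (RLE, upper quartile, library size, TMM without lineage and cell-cycle genes), DESeq2 1.42.0, limma-voom (limma 3.58.1), a test against a 1.5-fold change, other filters, only the 6 libraries, a replicate block, the code series as a term, and each library left out. Sequences were matched by gene symbol to RefSeq promoters.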

Additional observations from a re-analysis of the deposited data

How the results depend on the processing

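Counts of genes held within 1.5 times their reported size under the other scalings, DESeq2, limma-voom, both other filters and the 6 libraries alone (2685 to 3222 higher and 2403 to 3391 lower). They moved further in the test against a 1.5-fold change, to 1279 higher and 964 lower genes (1275 and 956 at 2-fold or more). They also moved in the code-series fit, to 370 higher and 121 lower, all at 2-fold or more, and 75.4% of its calls were higher against 51.8%. With 1 library left out there were 1550 to 3400 higher and 1417 to 3374 lower genes, and 1315 to 2081 and 959 to 1922 at 2-fold or more. The cause was not tested, and a left-out library also leaves 5 residual degrees of freedom. Without basal 2 and mixed 3 together, an alternative added after seeing the data, 3242 were higher and 3267 lower, and 2596 and 2430 of these were among the reported calls. That setting left the counts of the basal identity, contractile, mitosis, replication, matrix, cholesterol and glycolysis lists within 1.5 times, except for the 1 lower basal identity gene, which became 2.

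The replicate block by title number gave 2695 higher and 2311 lower genes, sharing 2513 and 2226 with the reported calls, and ended the calls of Bpifa2, Pip, Scgb1b27 and Chia1. Of 109 called genes named in the text, 40 lost their call in the code-series fit, 15 in the test against a 1.5-fold change and 7 to 9 without any 1 mixed or luminal library. None lost it under the other scalings, limma-voom or the other filters, and DESeq2 gave 8 of them no adjusted p. Rb1, Mdm2, Rbl2, Tln1, Sox10, Cd68, Mbp and Lipe are named in the text but are not among the 109. Of 12 uncalled genes named, 4 passed with the 6 libraries alone, 4 without basal 2, 2 without luminal 3, 2 without a filter on low counts and 1 each by DESeq2, limma-voom and the code-series fit. Directions turned in the code-series fit for Bpifa2 (-3.56), Dcpp2 (-3.08), Neat1 (0.34), Krt8 (0.33), Elf5 (-0.29), Cdh1 (0.25) and Fgfr2 (1.12), and with 1 library left out for Krt8 (from -0.28 to 0.043, positive without luminal 2), Cdh1 (from -0.31 to 0.042, positive without luminal 3) and Fgfr2 (from -0.48 to 0.25, positive without luminal 3). Where a library is named in the report beside such a value, the cause was not tested. The median of all tested genes moved by over 0.1 on the log2 scale only without a filter on low counts, to -0.31, where 33929 genes were tested. With 3 libraries a group, genes that missed the threshold are not shown to be equal. In simulation 2-fold changes were mostly not recovered, though far fewer genes were changed there than were called in the data. Genes under the level of 3 counts in a group carry fold changes that depend on the fit, and Bpifa2, Dcpp1, Col1a2 and Krtdap are therefore given with a counting interval or a bound.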

Other observations

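Genes of squamous differentiation were more often higher than lower in mixed aggregates. Of 23 tested, 11 were higher (47.8%) and 3 lower, with a median log2 difference of 1.63, and the code-series fit called 4 higher and 1 lower. Basal 2 was at least 2-fold above both other basal libraries for 26.1% of these genes, against 4.94% of all genes. Krtdap, a keratinocyte secreted protein, had 8.93, 5.35 and 10.7 CPM in mixed 1, 2 and 3 and 0 counts in every luminal library, at least 47.5-fold higher against the luminal floor of 3 counts per library. Sprr1a, a precursor of the cornified envelope, went the other way, with 75.02, 48.9 and 34.3 CPM in the mixed and 219.9, 236 and 116 CPM in the luminal libraries (-1.85 ± 0.40, adjusted p = 0.0065 by edgeR's quasi-likelihood test).

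Chemokines and cytokines went in both directions, with 5 of 24 tested higher (3 without luminal 3) and 6 lower (3 without mixed 1 or luminal 3), and 3 higher and 1 lower in the code-series fit. Cxcl14, a chemokine of epithelia, had 25.9, 24.8 and 24.3 CPM in the mixed and 1.08, 1.66 and 0.498 CPM in the luminal libraries and 85.3, 114 and 79.6 CPM in basal libraries (4.52 ± 0.33, adjusted p = 5.3e-06). Cxcl5, which attracts neutrophils, fell from 135 ± 24.7 to 55.01 ± 9.10 CPM (-1.29 ± 0.22, adjusted p = 0.0017). Of 26 tested interferon genes 3 were higher (6 without mixed 2 and 5 without basal 2) and none lower, with 1 higher and none lower in the code-series fit, although the mixed libraries varied among themselves for several of them. Car2, carbonic anhydrase 2, had 60.8, 58.02 and 53.7 CPM in the mixed and 8.85, 12.2 and 11.3 CPM in the luminal libraries, above both pure kinds, with 12.7, 19.01 and 14.4 CPM in basal libraries (2.41 ± 0.22, adjusted p = 2.5e-05), and this call held in the code-series fit (adjusted p = 0.017). Igfbp6, an IGF binding protein, rose from 0.177 ± 0.127 to 9.95 ± 2.13 CPM (5.77 ± 0.57, adjusted p = 3.5e-05).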
